A study of Mus musculus with 2 samples.

Results

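Ccl1, Ccl3, Ccl4, Ccl5, Ccr1 and Ccr8 are 6 of the 34097 genes listed in each of 2 single-cell RNA libraries from mouse lung tumours. The first 4 encode CC chemokines, small secreted proteins that direct the migration of leukocytes, and the last 2 encode chemokine receptors. They were chosen from their measured values in these same libraries, so their levels and differences stand here as a description, with no test. The tissue is labelled as a xenograft of LLC, the Lewis lung carcinoma line of the mouse. The control library (NC in the labels) carries the treatment label control, and the knockdown library (SH) is of a tumour in which an shRNA, a hairpin RNA that silences a gene, targeted Gfpt2, an enzyme of hexosamine synthesis. The labels do not say whether the shRNA was in the LLC cells alone. With 1 library per group, the libraries were compared and not the conditions, and every interval given covers counting error only. The age, sex and strain of the mice, the hairpin sequence and whether animals were pooled are not given in the sources used here.

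Chemokines act through receptors coupled to G proteins on the cells they attract. Ccl3 and Ccl4, known as MIP-1 alpha and MIP-1 beta, are made by activated macrophages, T cells and natural killer (NK) cells. Ccl3 and Ccl5 bind Ccr1, and Ccl1 binds Ccr8, a receptor known from regulatory T cells. Ccl5, known as RANTES, is a product of memory and cytotoxic lymphocytes and can also be induced in other cells by interferon and NF-kB signals. Transcription of these ligands is rapid and inducible.

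The stretch just before the gene start carries part of that inducible control, and it is shown for Ccl1 and Ccl3, both of them called higher in T cells of the knockdown library. RefSeq promoters on build GRCm38.p6 were at hand for 4 of the 6 members, among them Ccr1 and Ccr8. The sequences below run 5′ to 3′ on the strand of the gene, cover the 250 bases before its start, and have motif matches in capitals. The motifs searched, on both strands, were GGGNNNNNCC for NF-kB, TGANTCA for AP-1, TGGAAA for NFAT and GAAANNGAA for IRF.
Ccl1, minus strand, chr11:82179813-82180062: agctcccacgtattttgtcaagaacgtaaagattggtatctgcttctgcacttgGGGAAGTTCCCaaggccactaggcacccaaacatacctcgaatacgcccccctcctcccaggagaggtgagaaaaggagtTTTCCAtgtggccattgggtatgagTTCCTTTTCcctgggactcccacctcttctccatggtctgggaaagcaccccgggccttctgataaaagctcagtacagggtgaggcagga
Ccl3, minus strand, chr11:83649379-83649628: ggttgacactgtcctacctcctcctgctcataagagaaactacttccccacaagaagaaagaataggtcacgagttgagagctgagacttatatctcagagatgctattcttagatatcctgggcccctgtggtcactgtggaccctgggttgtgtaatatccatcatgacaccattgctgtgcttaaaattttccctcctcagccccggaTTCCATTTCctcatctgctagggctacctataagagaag
In the Ccl1 stretch the capitals mark 2 overlapping NF-kB matches on opposite strands, 1 NFAT match and 1 IRF match. The Ccl3 stretch held 1 IRF match and none of the other motifs. Over 32841 mouse promoters of the same length, 45.8% held the NF-kB motif, 18.6% the NFAT motif, 7.13% the IRF motif and 6.75% the AP-1 motif. A match describes the letters in this window and does not show a binding site.

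Cells were assigned to classes by gates on their counts of unique molecular identifiers (UMIs, single captured RNA molecules). Macrophages carried at least 10 UMIs of C1qa, C1qb and C1qc per 10000. T cells carried at least 2 UMIs of Cd3d, Cd3e and Cd3g and were split by Cd8a and Cd4, and NK cells carried at least 2 UMIs of Ncr1, Klrb1c and Klre1 with no Cd3 UMI. Tumour-like cells carried no Ptprc UMI, fewer than 5 Lyz2 UMIs per 10000 and at least 5000 UMIs in all. The gates held 3990 control and 4557 knockdown macrophages, 786 and 676 T cells, 52 and 62 NK cells, and 4986 and 5211 tumour-like cells. A cell could pass more than 1 gate: 121 control and 130 knockdown cells were both macrophages and T cells, and 3 and 13 were both macrophages and NK cells. Of the tumour-like list, Epcam gave 4 and 8 UMIs in tumour-like cells, Krt8 9 and 8, Krt18 1 and 0 and Krt7 114 and 87 (1.10 and 0.992 CPM), whereas Hmga2, a mesenchymal and fetal chromatin gene, stood at 219.7 and 218.5 CPM (UMIs of the gene per 1000000 UMIs of the class). The fibroblast list (Col1a1, Col1a2, Pdgfra, Dcn) summed to 1092 and 1162 CPM in them with 4 of 4 genes detected, above the tumour-like list (Krt7, Hmga2, Krt8, Krt18, Epcam) at 221 and 219.7 CPM. The name tumour-like is used here for the gate.

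After filters, 10662 control cells with 138972698 UMIs and 11450 knockdown cells with 118546004 UMIs remained, with medians of 9372 and 7169 UMIs per cell. Gfpt2 itself gave 244 control UMIs (1.76 CPM) and 68 knockdown UMIs (0.574 CPM). The libraries shared 37 cell barcodes. Values are given in the order control, knockdown, and a log2 ratio is knockdown over control, so a negative ratio means a lower knockdown level. A gene was called higher or lower when its CPM differed by 1.5-fold or more with at least 50 UMIs over both libraries.

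**Figure D1:**
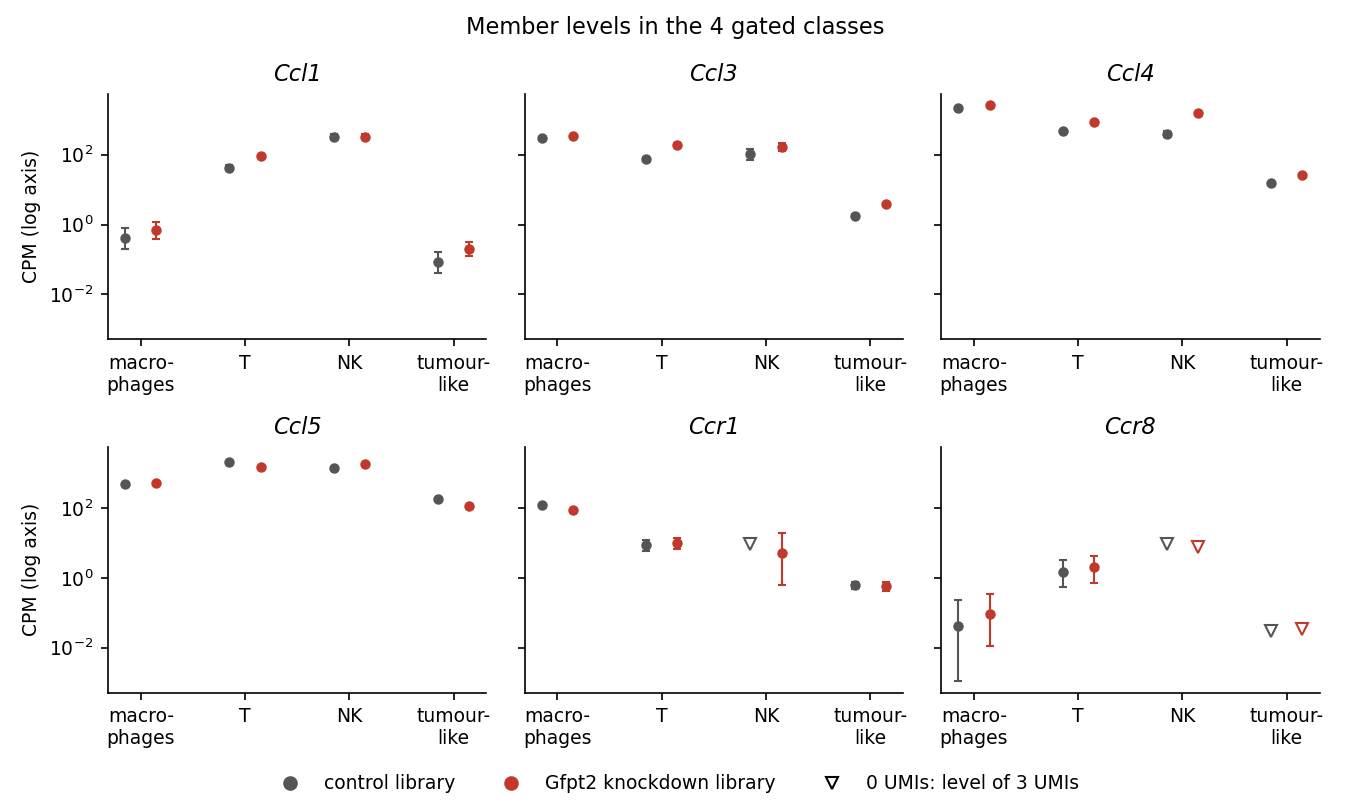
CPM of each member (log axis) in macrophages, T cells, NK cells and tumour-like cells of the control (grey) and knockdown (red) libraries. Points are class sums with exact 95% Poisson intervals, and open triangles mark the level of 3 UMIs where a gene had 0. Ccl3, Ccl4 and Ccr1 stood highest in macrophages, Ccl5 in T and NK cells, Ccl1 in NK and T cells, and Ccr8 had 15 UMIs in all.

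Macrophages that passed no other gate held 89.96% of all control Ccl3 UMIs and 86.4% of all knockdown Ccl3 UMIs, 90.8% and 89.4% of Ccl4 UMIs, and 90.4% and 93.4% of Ccr1 UMIs. Ccl5 was spread over 3 classes: tumour-like cells alone held 45.3% of its control UMIs and 36.4% of its knockdown UMIs, macrophages 25.4% and 38.0%, and T cells 17.4% and 14.0%. Ccl1 UMIs lay in lymphocytes, with 53.9% and 61.8% in T cells and 33.4% and 30.2% in NK cells. These shares by themselves do not separate fewer cells of a class from less RNA per cell. Tumour-like cells numbered 4986 and 5211, and the CPM of each member within a class is given below.

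**Figure D2:**
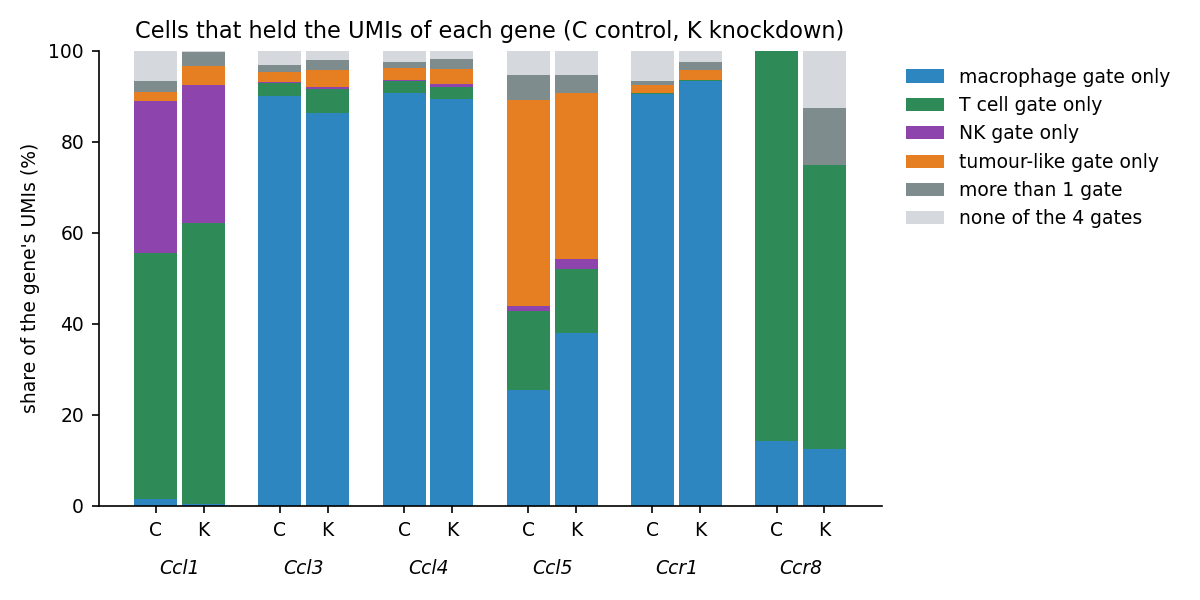
Share of each gene's UMIs (%, y axis) held by cells that passed 1 gate, more than 1 gate or none, in the control (C) and knockdown (K) libraries. Macrophages hold most Ccl3, Ccl4 and Ccr1 UMIs in both libraries, while tumour-like cells hold 45.3% of the control and 36.4% of the knockdown Ccl5 UMIs.

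Ccl4 (ENSMUSG00000018930) was the most abundant member in macrophages. Its 50262 control UMIs came to 2118 CPM (95% Poisson interval 2100 to 2137) and its 57938 knockdown UMIs to 2693 CPM (2671 to 2715). The log2 ratio was 0.35, with a range of 0.32 to 0.37 allowed by both intervals. Ccl3 (ENSMUSG00000000982) stood at 297 CPM (290 to 304) and 348 CPM (341 to 356), a log2 ratio of 0.23 (0.17 to 0.30). For both ligands the intervals of the libraries did not overlap, and neither ratio reached 1.5-fold. At the threshold that the doublet caller Scrublet set itself, the ratio was 0.66 for Ccl4, past 1.5-fold, and 0.55 for Ccl3. After each cell was thinned to 3000 UMIs, Ccl4 was detected in 75.8% (74.3 to 77.3) of control and 79.0% (77.4 to 80.4) of knockdown macrophages, and Ccl3 in 41.3% (39.5 to 43.0) and 43.1% (41.2 to 44.9). Without thinning the shares were 76.3% and 78.7% for Ccl4 and 48.5% and 45.1% for Ccl3, at median depths of 5380 and 3951 UMIs.

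Beside the macrophage ratios of Ccl3 and Ccl4 stood a difference in the share of interferon-high macrophages, those with at least 5 UMIs of Ifit1, Ifit2 and Ifit3 per 10000. That share was 26.5% (25.2 to 27.9) of control and 43.6% (42.2 to 45.1) of knockdown macrophages. Interferon-high macrophages carried 3918 and 3956 CPM of Ccl4, a log2 ratio of 0.01 (-0.02 to 0.05), and the other macrophages 1529 and 1749 CPM, a log2 ratio of 0.19 (0.16 to 0.23). For Ccl3 the levels were 462 and 476 CPM in interferon-high cells, a log2 ratio of 0.05 (-0.05 to 0.14), and 243 and 253 CPM in the others, a log2 ratio of 0.06 (-0.03 to 0.15). With the share of interferon-high cells set to that of the control library, a comparison chosen after the values were seen, the ratio was 0.11 for Ccl4 and 0.05 for Ccl3. Whether that share accounts for the ratios was not tested.

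**Figure D3:**
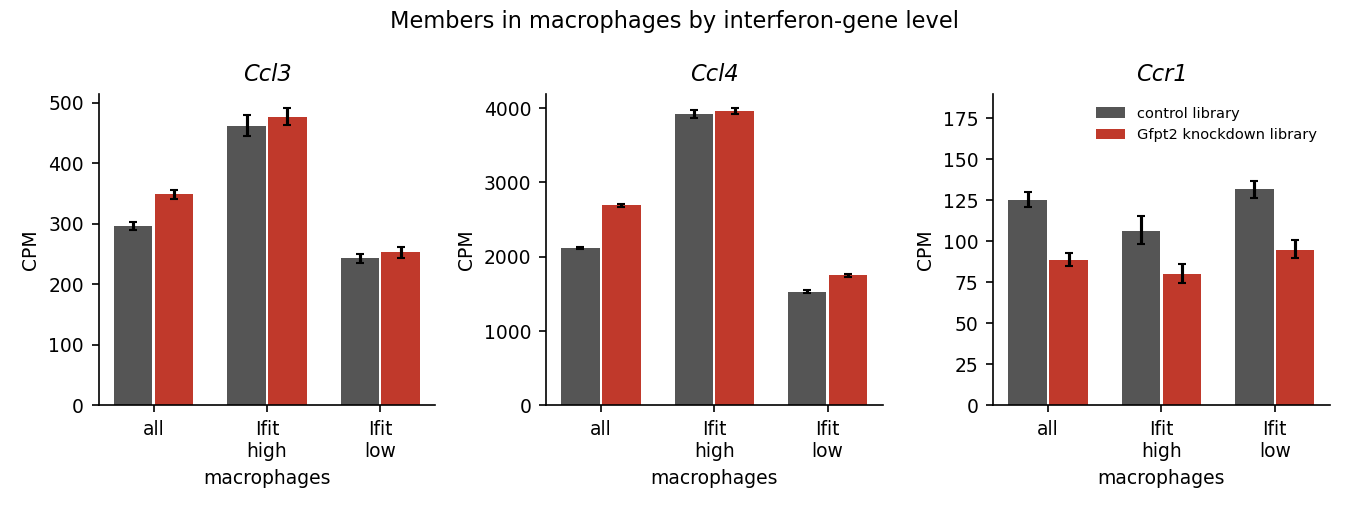
CPM of Ccl3, Ccl4 and Ccr1 in all macrophages, interferon-high macrophages (Ifit high) and the others (Ifit low), control in grey and knockdown in red, with exact 95% Poisson intervals. Ccl4 stands at 3918 and 3956 CPM in Ifit-high cells and at 1529 and 1749 CPM in Ifit-low cells, and Ccr1 is lower in the knockdown library in both subsets.

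Ccr1 (ENSMUSG00000025804), a receptor of Ccl3 and Ccl5 on myeloid cells, was lower in knockdown macrophages. It gave 2974 control UMIs, or 125 CPM (121 to 129.9), and 1906 knockdown UMIs, or 88.6 CPM (84.6 to 92.6), a log2 ratio of -0.50 (-0.62 to -0.38). At Scrublet's own threshold the ratio was -0.17, and with the median of all genes set to 0 it passed 1.5-fold, at -0.62. It was detected in 29.5% (27.9 to 31.2) of control and 23.1% (21.6 to 24.7) of knockdown macrophages after thinning. The direction was the same in interferon-high macrophages, at 106 and 80.2 CPM, and in the others, at 132 and 94.8 CPM. Cells of a monocyte gate (none of the other gates, at least 5 UMIs of Ly6c2, Plac8 and Ccr2 per 10000, and a Ptprc UMI) showed the same direction, with 93 and 16 UMIs, or 166 and 56.9 CPM, a log2 ratio of -1.54 (-2.64 to -0.54). In that gate the macrophage list summed to 5829 and 2914 CPM, the monocyte list to 3287 and 2309.7 CPM and the NK list to 149.7 and 319.8 CPM, and their part in the Ccr1 value was not tested.

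Ccl5 (ENSMUSG00000035042) in macrophages stood at 480 CPM (471 to 489) and 508 CPM (499 to 518). The log2 ratio of 0.08 (0.03 to 0.14) became -0.03 with the median of all genes set to 0, and also -0.03 with each cell given equal weight, whereas it was 0.28 at Scrublet's own threshold, 0.21 with stricter gates and 0.19 in cells that passed 1 gate only. Within interferon-high macrophages Ccl5 stood at 709 and 603 CPM, and within the others at 405 and 437 CPM. Ccl1 gave 10 and 15 UMIs in macrophages and Ccr8 gave 1 and 2, too few for a comparison.

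None of the 4 members measured in macrophages was called, where 13.8% of 13210 genes were called higher and 1.82% called lower. This depended on processing: Ccl4 passed 1.5-fold at Scrublet's own threshold, and Ccr1 with the median of all genes set to 0. All genes together had a median log2 ratio of 0.12 in macrophages, and relative to it the ratios were 0.23 for Ccl4 and 0.11 for Ccl3. Of the genes called in macrophages 88.3% were higher, against 78.1% with the median set to 0 and 79.0% with no doublet removal; the number called was 2060, and 1034 with no doublet removal. Markers of other cells moved with the macrophage gate, and their part in the results was not tested: the fibroblast list summed to 133 and 334 CPM with 4 of 4 genes detected, the tumour-like list to 34.7 and 89.3 CPM with Krt8 at 0 in the knockdown library, and the T cell list to 55.7 and 81.1 CPM with 6 of 6 detected. Other lists were lower in the knockdown macrophage gate, as Ccr1 was: the macrophage list summed to 75153 and 62442 CPM with 8 of 8 detected, the monocyte list to 97.7 and 65.4 CPM with 3 of 3, and the neutrophil list to 66.2 and 33.1 CPM with Retnlg at 0 in the knockdown library.

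Per cell, Ccl3 and Ccl4 went together in macrophages. Of thinned macrophages with a Ccl3 UMI, 90.6% (88.9 to 92.2) of control and 92.4% (90.8 to 93.8) of knockdown cells also had a Ccl4 UMI, compared with 65.4% (63.2 to 67.6) and 68.8% (66.4 to 71.0) of those without. Pearson's r of Ccl3 with Ccl4 over cells was 0.55 (control) and 0.57 (knockdown), as a description over 3990 and 4557 cells that share a library. The genes whose pattern over macrophages was closest to Ccl4 after Ccl3 were Ifih1 (r of 0.44 and 0.49), an RNA sensor, Oasl1 (0.42 and 0.48), an interferon-induced gene, Tnf (0.40 and 0.43) and Isg15 (0.38 and 0.38). Ccr1 was closest to Lyz2 (0.24 and 0.26), Ctsc (0.23 and 0.26) and Ctss (0.22 and 0.23), genes of myeloid lysosomes. Tyrobp (0.22 and 0.24) and Bcl2a1b (0.21 and 0.26) followed. No gene reached 0.2 with Ccl5 in both libraries.

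Of a list of other CC chemokine ligands, all 7 were measured in macrophages (Ccl2, Ccl6, Ccl7, Ccl8, Ccl9, Ccl11, Ccl12), with Ccl11 called higher, Ccl9 called lower and a median log2 ratio of -0.37, compared with 0.12 over all genes. The most abundant were Ccl2, which recruits monocytes, at 1132 and 1059 CPM, Ccl8, which stood at 1184 and 840.4 CPM, and Ccl12, which stood at 1137 and 849.9 CPM. Of 21 other chemokines and receptors measured, 5 were higher (Ackr3, Ccl24, Cxcl11, Cxcr6, Xcl1) and 2 lower (Ccl17, Ccr2), with a median of -0.09. The most abundant of these were the neutrophil attractant Cxcl2, at 706 and 489 CPM, and the interferon-induced T cell attractants Cxcl10, at 433 and 573 CPM, and Cxcl9, at 443 and 340 CPM. The ranges of Ccl24 (25 and 37 UMIs) and Ccl17 (85 and 49 UMIs) included 0. Over all genes in the macrophage gate, 13.8% were called higher and 1.82% lower. None of 16 genes of chemokine receptor signalling and none of 19 genes of induced transcription and message decay was called, with medians of -0.08 and -0.003. The most abundant of these were Rgs1, an inhibitor of G protein signalling, at 1216 and 1055 CPM, and the immediate early genes Junb, at 1188 and 1149 CPM, and Fos, at 1164 and 1108 CPM. Of 12 genes of T cell activation measured in the macrophage gate, 7 were higher and none lower with a median of 0.68, and of these Tnf, which macrophages make themselves, stood at 288 and 369 CPM and was not called. Prf1, Gzmb and Ifng, products of lymphocytes, were among the 7, at 7.25, 30.3 and 10.2 CPM in the knockdown library, beside the higher T and NK marker sums of that gate.

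In T cells both MIP-1 ligands were higher and Ccl5 was lower in the knockdown library. Ccl3 stood at 76.1 CPM (68.0 to 85.0; 317 UMIs) and 196 CPM (180.2 to 212; 595 UMIs), a log2 ratio of 1.36 (1.08 to 1.64). Ccl4 stood at 484 CPM (463 to 506; 2016 UMIs) and 881 CPM (848 to 915; 2680 UMIs), a log2 ratio of 0.86 (0.75 to 0.98). Ccl5 stood at 2108 CPM (2064 to 2153; 8778 UMIs) and 1505 CPM (1462 to 1549; 4578 UMIs), a log2 ratio of -0.49 (-0.56 to -0.41). This ratio of Ccl5 did not reach 1.5-fold, whereas those of Ccl3 and Ccl4 did. For Ccl5 it was -0.27 with no doublet removal and -0.063 at Scrublet's own threshold. It passed 1.5-fold after thinning, at -0.74, and with gates per 10000 UMIs, at -0.84. Thinned to 3000 UMIs, which left 359 control and 297 knockdown T cells, Ccl3 was detected in 16.4% (12.8 to 20.7) and 25.9% (21.0 to 31.3) of cells, Ccl4 in 44.6% (39.4 to 49.9) and 52.5% (46.7 to 58.3), and Ccl5 in 76.6% (71.9 to 80.9) and 68.0% (62.4 to 73.3). The intervals of the shares overlapped for Ccl4 and Ccl5 and did not for Ccl3. Unthinned, the shares were 13.5% and 22.8%, 47.1% and 56.2%, and 78.5% and 74.0%.

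The same directions were seen in CD8 T cells and in T cells with neither Cd8a nor Cd4. In the 406 and 380 CD8 cells, Ccl3 stood at 112 and 246 CPM, Ccl4 at 562 and 944 CPM, and Ccl5 at 2579 and 1682 CPM. In the 337 and 265 cells with neither, Ccl3 stood at 36.9 and 98.8 CPM, Ccl4 at 409 and 748 CPM, and Ccl5 at 1607 and 1231 CPM. The 41 and 30 CD4 cells held 8 and 19 Ccl3 UMIs, 47 and 114 Ccl4 UMIs and 241 and 106 Ccl5 UMIs. One control CD8 cell, which also passed the tumour-like gate, held 581 Ccl5 UMIs, or 10.5% of the CD8 total; without the highest cell of each library the ratio in all T cells was -0.42.

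Several marker lists moved with the T cell gate, and their part in the Ccl3, Ccl4 and Ccl5 values was not tested. The T cell list summed to 2743 and 3295 CPM, the CD8 list to 498 and 664 CPM and the NK list to 1074 and 1433 CPM, with all members detected. The gamma-delta T list, with 2 of 3 genes in the matrix, summed to 70.6 and 21.4 CPM, and the fibroblast list to 428 and 278 CPM with 4 of 4 detected. CD8 cells held 51.4% of the gate's control UMIs and 64.0% of its knockdown UMIs. The 8 macrophage markers, all detected, summed to 6260 and 7374 CPM. In T cells that passed no other gate the sums were 966 and 874 CPM, and there Ccl3 stood at 74.1 and 205 CPM, a log2 ratio of 1.47 (1.14 to 1.80), and Ccl4 at 455 and 757 CPM, a log2 ratio of 0.73 (0.59 to 0.88). At each ligand's ratio to C1q UMIs in macrophages, the C1q UMIs of the whole T cell gate would bring 30.6% and 21.7% of its Ccl3 UMIs and 34.4% and 37.3% of its Ccl4 UMIs, and those of the cells that passed no other gate would bring 4.10% and 1.78% of their Ccl3 UMIs and 4.76% and 3.71% of their Ccl4 UMIs. Ccr1 gave 35 and 30 UMIs in the T cell gate, of which 9 and 4 lay in cells that passed no other gate.

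Of the 5 members measured in T cells, 3 were called higher (Ccl1, Ccl3, Ccl4) and none lower, where 4.59% of 9919 genes were called higher and 2.3% lower. The call of Ccl1 was lost with no doublet removal and with all deposited cells (0.49 in both). Of the genes called in T cells 66.6% were higher, against 51.5% with the median set to 0 and 51.8% in cells that passed no other gate. Among 14 genes of T cell activation, all measured, 5 were called higher (Tnfrsf9, Havcr2, Lag3, Csf2, Prf1) and none lower, with a median of 0.45 compared with 0.07 over all genes. Tnfrsf9, a costimulatory receptor, stood at 363 and 551 CPM, Gzmb, a granzyme, at 412 and 501 CPM, and Ifng at 330.0 and 448 CPM. Of 8 regulatory T cell genes none was called, and the most abundant were Tnfrsf18, at 206 and 248 CPM, Ikzf2, at 215 and 218 CPM, and Tnfrsf4, at 99.0 and 147 CPM. Of 19 genes of induced transcription Irf8 and Egr2 were higher and none was lower, with Junb at 1260 and 1368 CPM and Fos at 515 and 583 CPM. The range of Egr2 (31 and 42 UMIs) included 0. None of 14 genes of receptor signalling was called. Of 14 other chemokines and receptors measured, Cxcl1, Cxcl9 and Cxcl10 were higher and none was lower. Of 6 other ligands measured, Ccl12 was lower, at 153 and 88.1 CPM.

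Ccl3 and Ccl4 also went together within T cells. Of thinned T cells with a Ccl3 UMI, 78.0% (65.3 to 87.7) of control and 87.0% (77.4 to 93.6) of knockdown cells had a Ccl4 UMI, compared with 38.0% (32.5 to 43.8) and 40.5% (33.9 to 47.3) of those without. Pearson's r over T cells was 0.35 and 0.52. Of thinned T cells with a Ccl4 UMI, 86.9% (80.6 to 91.7) and 74.4% (66.8 to 81.0) had a Ccl5 UMI, compared with 68.3% (61.4 to 74.7) and 61.0% (52.4 to 69.1) of those without. Ccl5 was closest over T cells to Nkg7, Gzma, Gzmb, Ccl4 and Gzmk, genes of cytotoxic granules apart from Ccl4, and Ccl1 reached 0.2 in both libraries only with Tnfsf11 (0.32 and 0.27), the ligand of RANK.

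**Figure D4:**
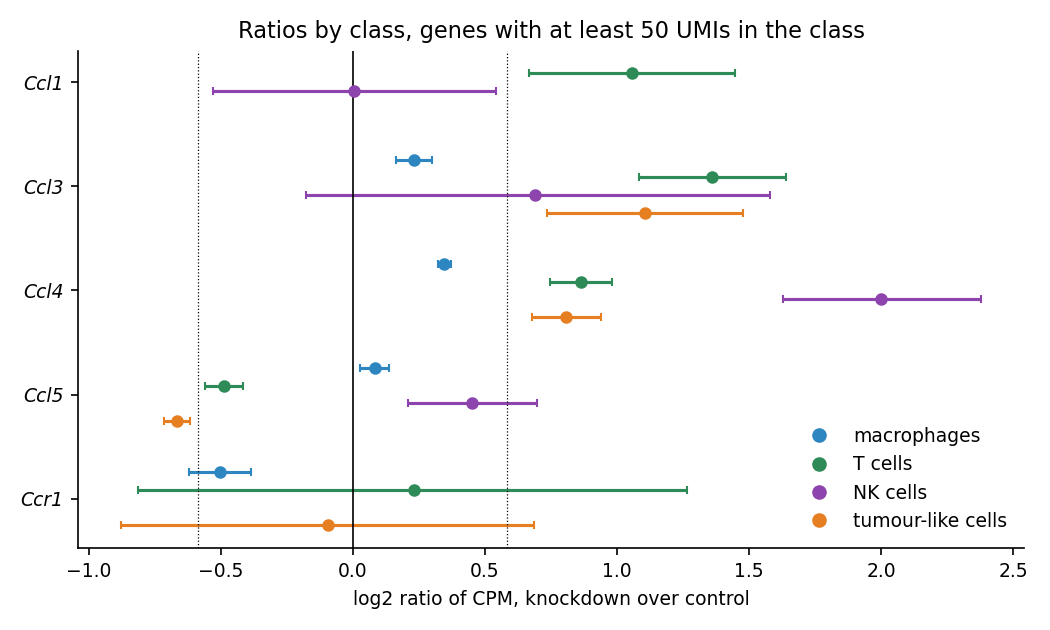
Log2 ratio of CPM, knockdown over control (x axis), for members with at least 50 UMIs in a class; bars are the range allowed by both exact 95% Poisson intervals and dotted lines mark 1.5-fold. Ccl3 and Ccl4 lie to the right in every class shown, and Ccl5 lies to the left in T cells and tumour-like cells and to the right in NK cells.

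Ccl1 (ENSMUSG00000020702) was carried by very few cells. The T cell gate gave 179 control UMIs, or 43.0 CPM (36.9 to 49.8), and 272 knockdown UMIs, or 89.4 CPM (79.1 to 101), a log2 ratio of 1.06 (0.67 to 1.45). The number of T cells with a Ccl1 UMI was 22 in each library, and the highest control cells held 95, 37 and 7 UMIs and the highest knockdown cells 87, 45 and 36. The interval counts molecules and not cells: without the highest cell of each library the levels were 20.2 and 60.9 CPM and the ratio 1.59, whereas with no doublet removal the ratio was 0.49 and with gates per 10000 UMIs 0.63. The NK gate held 106 and 128 Ccl1 UMIs, or 331 and 332 CPM, in 4 cells of each library, with 81 and 118 of them in a single cell; without that cell the levels were 79.7 and 27.0 CPM and the ratio -1.56.

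Over all kept cells, 5 control cells and 6 knockdown cells had 10 or more Ccl1 UMIs and held 77.6% and 79.8% of the gene's UMIs. Of the control cells 2 passed the T cell gate, 2 the NK gate and 1 no gate. Of the knockdown cells 5 passed the T cell gate and 1 the NK gate. None of these 11 cells had a Foxp3 UMI, 1 control and 3 knockdown cells had a Tnfsf11 UMI, and 1 control and 2 knockdown T cells among them carried Cd8a. The control NK cells of this kind had 0 Ccl3 and 0 Ccl4 UMIs each, and so had the knockdown NK cell.

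Ccr8 (ENSMUSG00000042262), the receptor of Ccl1, was at the edge of detection. All kept cells gave 7 control and 8 knockdown UMIs, of which T cells held 6 and 6, or 1.44 CPM (0.529 to 3.14) and 1.97 CPM (0.724 to 4.29). Of these, CD8 cells held 4 and 1, CD4 cells 1 and 2, and T cells with neither 1 and 3. T cells with a Foxp3 UMI, 19 control and 17 knockdown cells, held 0 and 2. Tumour-like cells and NK cells had 0 UMIs in both libraries, which at 3 UMIs allows up to 0.0289 and 0.0342 CPM in tumour-like cells and 9.37 and 7.79 CPM in NK cells. A difference of Ccr8 between the libraries was not detectable at this depth. Ccr4, another receptor of T cells that is known from the regulatory kind, gave 11 and 11 UMIs in T cells, and Ccr3, a receptor of Ccl5 on eosinophils, 0 and 2.

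In NK cells Ccl4 stood far apart between the libraries, at 390 CPM (325 to 465) from 125 UMIs and 1559.7 CPM (1437 to 1690) from 601 UMIs, a log2 ratio of 2.00 (1.63 to 2.38). These intervals count molecules and not cells. A Ccl4 UMI was found in 19 of 52 control and 40 of 62 knockdown NK cells. After thinning to 3000 UMIs, the counts were 11 of 40 and 18 of 42, and the difference was not tested. Cells with 10 or more Ccl4 UMIs numbered 4 and 13 and held 67.2% and 87.0% of them. The highest control cell held 37 UMIs, or 29.6%, and the highest knockdown cell 196, or 32.6%. Without the highest cell of each library the ratio was 1.95. With no doublet removal it was 0.92, with stricter gates 2.72 and after thinning 2.63. Ccl3 gave 33 and 64 UMIs, or 103 and 166 CPM, with a range that included 0 (-0.18 to 1.58), and Ccl5 434 and 714 UMIs, or 1355 and 1853 CPM, a log2 ratio of 0.45 (0.21 to 0.70) that was -0.73 after thinning. Ccr1 gave 0 and 2 UMIs.

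Macrophage markers stood apart in this gate too: they summed to 756 CPM in control NK cells, with Adgre1 and Csf1r at 0, and to 8473 CPM in knockdown NK cells, with 8 of 8 detected. In the NK cells that passed no other gate, C1q stood at 175 and 204 CPM and Ccl4 at 383 and 1587 CPM, which is a log2 ratio of 2.05 (1.66 to 2.46). Among the 4 members measured in NK cells, 2 were called higher (Ccl3, Ccl4) and none lower, where 6.93% of 2366 genes were called higher and 8.16% lower. The call of Ccl3 was lost with no doublet removal (0.33), at Scrublet's own threshold (0.56), with gates per 10000 UMIs (0.37) and with every cell weighted equally (0.19). All 4 measured ligands among Ccl2, Ccl7, Ccl8 and Ccl12, which macrophages carried at high levels, were called higher as well; Ccl2 gave 27 and 104 UMIs and Ccl12 gave 1 and 77. Of 4 other chemokines and receptors measured in NK cells, Cxcl2 and Xcl1 were called higher and Cxcl10 lower. Cxcl10 gave 91 and 44 UMIs, or 284 and 114 CPM. Xcl1, a ligand made by NK cells, stood at 1065 and 1819 CPM, and Gzmb at 3439 and 3797 CPM.

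In tumour-like cells Ccl5 was lower in the knockdown library, at 178 CPM (175 to 181; 18442 UMIs) and 112 CPM (110.0 to 114; 9835 UMIs), a log2 ratio of -0.67 (-0.72 to -0.62). These UMIs were concentrated: 1.74% of control cells and 1.42% of knockdown cells held 50% of them. The 350 control cells (7.02%, 6.33 to 7.76) and 192 knockdown cells (3.68%, 3.19 to 4.23) with 10 or more Ccl5 UMIs held 84.9% and 69.7% of the Ccl5 UMIs, at 1816 and 1872 CPM. That cut was on raw UMIs, at median depths of 18744 and 14667 UMIs, and the part of depth was not tested. At 10 to 30 Ccl5 UMIs per 10000 the shares were 2.87% and 1.69%, and over 30 they were 1.52% and 0.806%. Thinned to 3000 UMIs, Ccl5 was detected in 14.0% (13.0 to 15.0) of 4952 control cells without a Ccl3 UMI. In the knockdown library it was 12.5% (11.6 to 13.5) of 5145 such cells. The cells with 10 or more Ccl5 UMIs had 0 Ptprc UMIs by the gate, and 328 and 179 of them had no Cd3 UMI. Their summed T cell markers were 6.84 and 32.8 CPM, compared with 3.56 and 4.19 CPM in the tumour-like cells with no Ccl5 UMI, and their NK markers 3.25 and 13.7 CPM, compared with 1.84 and 2.59 CPM. The fibroblast list summed to 1785 and 1657 CPM in them, compared with 966 and 1125 CPM. The part of these markers in the Ccl5 values was not tested.

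The gene most set apart in the cells with 10 or more Ccl5 UMIs, compared with the tumour-like cells with none, was Krt16, a keratin of stressed and activated epithelium, at 359 against 3.27 CPM (control) and 39.0 against 3.72 CPM (knockdown). It was named after its values were seen, and the cells were chosen by Ccl5. Others near the top were Enpp2, Gja4, C3, and the interferon-induced Cxcl9, Oasl1 and Cxcl11. Gfpt2, the targeted gene, was concentrated in the same control cells: of its 212 control UMIs in tumour-like cells, 149 (70.3%) lay in the 350 cells with 10 or more Ccl5 UMIs, at 17.3 CPM (14.6 to 20.3), compared with 0.663 CPM (0.510 to 0.848) in the rest. In the knockdown library 9 of 57 Gfpt2 UMIs (15.8%) lay in such cells, at 2.46 CPM (1.12 to 4.66), compared with 0.571 CPM (0.421 to 0.758) in the rest.

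Tumour-like cells were also divided by Krt16, a split added after the values were seen. Krt16 was picked because it tracked Ccl5 in these same cells, which largely fixes how Ccl5 falls across the split, so the values are a description and locate nothing. Cells with 3 or more Krt16 UMIs made up 2.99% of control tumour-like cells (149) and 0.710% of knockdown ones (37), and their Ccl5 level was 1910 CPM (1868 to 1954) and 1538 CPM (1453 to 1628). They held 40.9% of the control and 12.3% of the knockdown Ccl5 UMIs of the class. Cells with 1 or 2 Krt16 UMIs (157 and 91) stood at 434 and 272 CPM. The 4680 control and 5083 knockdown cells with no Krt16 UMI stood at 96.3 CPM (94.3 to 98.2) and 95.3 CPM (93.3 to 97.4), a log2 ratio of -0.01, and their intervals overlapped. Median depth was 18422 and 14596 UMIs in the cells without Krt16, and the part of depth in this split was not tested.

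**Figure D5:**
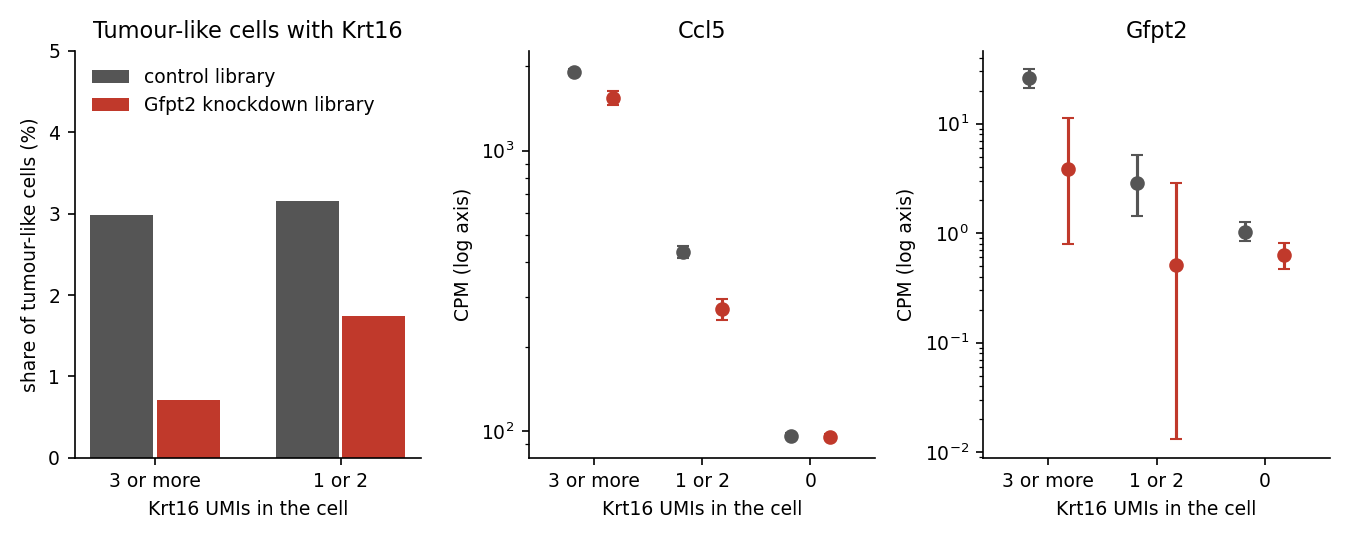
Tumour-like cells by their number of Krt16 UMIs: share of cells (left, %; the cells with 0 make up the remainder) and CPM of Ccl5 and Gfpt2 (log axes) with exact 95% Poisson intervals, control in grey and knockdown in red. Cells with 3 or more Krt16 UMIs carry 1910 and 1538 CPM of Ccl5 and make up 2.99% and 0.710% of tumour-like cells, while cells with none stand at 96.3 and 95.3 CPM.

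Ccl3, Ccl4 and Ccr1 in tumour-like cells stood near their ratio to C1q in macrophages. Ccl3 gave 1.76 and 3.78 CPM (182 and 331 UMIs), Ccl4 15.0 and 26.3 CPM (1555 and 2303 UMIs) and Ccr1 0.608 and 0.570 CPM (63 and 50 UMIs). Per 1000 C1q UMIs, tumour-like cells held 14.7 and 26.98 Ccl3 UMIs and macrophages 14.8 and 20.6, and for Ccl4 the values were 125 and 188 in tumour-like cells and 106 and 159 in macrophages. At the macrophage ratio, C1q UMIs would bring 101% and 76.2% of the Ccl3 UMIs, 84.3% and 84.6% of the Ccl4 UMIs and 123% and 128% of the Ccr1 UMIs of tumour-like cells. The part of macrophage RNA in these levels and in the calls of Ccl3 and Ccl4 was not tested. For Ccl5 the macrophage ratio to C1q would bring 1.61% and 3.74% of its UMIs.

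Of the 4 members measured in tumour-like cells, 2 were called higher (Ccl3, Ccl4) and 1 lower (Ccl5), where 4.71% of 14829 genes were called higher and 1.44% lower. The call of Ccl5 was lost with every cell weighted equally (-0.51) and after thinning (-0.49). Ccl1 gave 9 and 18 UMIs and Ccr8 0. By the mean of both libraries, the chemokine ligands most abundant in tumour-like cells were not members. Ccl2 stood at 823 and 1010.0 CPM, Cxcl10 at 332 and 508 CPM and Ccl7 at 172 and 219.7 CPM. In the control library the member Ccl5, at 178 CPM, stood above Ccl7. Of 6 ligands of the same list measured none was called, and of 20 other chemokines and receptors Cxcl10, Cxcl11 and Cxcl14 were higher and Ccl22 and Ccr2 lower. The range of Ccr2 (39 and 16 UMIs) included 0.

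By level, Ccl4 ran from macrophages through T cells to NK cells among control cells, with overlapping intervals for T and NK cells, and from macrophages through NK cells to T cells among knockdown cells. Ccl3 ran from macrophages through NK cells to T cells among control cells, and from macrophages through T cells to NK cells among knockdown cells. In each library the Ccl3 intervals of NK cells and T cells overlapped. Ccl5 ran from T cells through NK cells to macrophages among control cells, and among knockdown cells NK cells stood above T cells. Over the 12 values of 6 classes in 2 libraries, which share depth and library, the pattern of Ccl3 and Ccl4 was alike (Pearson's r of 0.98), as a description among 14902 genes. Other genes were as close: Ccl3 was closest to Actr3 (0.98), then Ccl4, Pdgfb, Plek and Zswim6. Ccl4 was closest to Zswim6 (0.99), then Pdgfb, Ccl3, Nckap1l and Ctsc. Ccl1 was closest to Kcnk7 (0.97), Spint2, Satb1, Tnfsf11 and Unc45a, Ccl5 to Atp2b4 (0.97), Cish, Cdc42ep3, Fcho1 and Nbeal2, and Ccr1 to Cd300a (0.99), Pdlim4, Igsf6, Ptgs1 and Ptpro.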

How the data were processed

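The 2 10x Genomics libraries were deposited as matrices of UMI counts, per gene and cell. The authors made these counts with Cell Ranger, version 6.1.0 per the file headers and 3.1.0 per the submitters' processing notes. The genome build and annotation behind them are not given in the sources used here, so no coordinate was taken from them. Of 11977 control and 12853 knockdown cells, those with fewer than 200 genes (34 and 19) or over 20% mitochondrial UMIs (135 and 62) were left out. The cells with the highest Scrublet scores, 0.8% per 1000 cells (1148 and 1322), were removed as doublets.

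Counts were summed per class and library with scanpy 1.11.5, numpy 2.4.6 and scipy 1.17.1, and intervals are exact 95% Poisson or Clopper-Pearson. Shares of cells were also taken after thinning to 3000 UMIs, leaving shallower cells out. With 1 library per group no test was run. All members were named, with the 3 most abundant genes of each list in a class and the 5 genes most like a member by Pearson's r (within a class, of 0.2 or more in both libraries); other genes, among them those called in a list and Krt16, were named after their values were seen. The calling of folds was tested on simulated data. The members and lists were chosen with earlier results of these data known. Alternatives covered the filters, doublets, gates, scaling, weighting and thinning, and 3 (without the highest cell, the control share of interferon-high cells, no Krt16 UMI) were chosen after the values were seen. Some results are not reported here.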

Additional observations from a re-analysis of the deposited data

Results flagged for a closer look

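Ccl5 differed in direction between classes under the same comparison of knockdown with control: its log2 ratio was -0.67 in tumour-like cells and -0.49 in T cells, and 0.082 in macrophages and 0.45 in NK cells. With 1 library per group the difference between classes was not tested. The NK value was -0.73 after thinning, and the macrophage value was -0.035 with the median of all genes set to 0. The T cell value was -0.27 with no doublet removal and -0.063 at Scrublet's own threshold, and the tumour-like value was inside 1.5-fold with every cell weighted equally (-0.51) and after thinning (-0.49).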

How the results depend on the processing

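All values here are log2 ratios of knockdown over control unless they are counts of genes. Of 135 values recomputed over 13 main results, 78 moved by less than counting error, 57 by more, and 0 were called on the opposite side; over all members, 19 of 215 values had the opposite sign, and the cause was not tested. With all deposited cells, and with no doublet removal, the ratios were 0.31 and 0.31 for Ccl3 and 0.42 and 0.42 for Ccl4 in macrophages, 0.49 and 0.49 for Ccl1, 1.03 and 1.03 for Ccl3, 0.73 and 0.73 for Ccl4 and -0.27 and -0.27 for Ccl5 in T cells, and 0.92 and 0.92 for Ccl4 in NK cells; Ccr8 in macrophages, from 1 to 3 UMIs, went to -0.80 and -0.80. At Scrublet's own threshold, which marked 1125 and 2929 doublets, they were 0.55 (Ccl3), 0.66 (Ccl4), 0.28 (Ccl5) and -0.17 (Ccr1) in macrophages, 1.70 (Ccl3), 0.98 (Ccl4) and -0.063 (Ccl5) in T cells, and -0.75 (Ccl5) in tumour-like cells. In cells that pass 1 gate only they were 0.19 (Ccl5) and -1.16 (Ccl1, few UMIs) in macrophages and 0.73 (Ccl4) and -0.41 (Ccl5) in T cells. Stricter gates gave 0.31 (Ccl3), 0.42 (Ccl4) and 0.21 (Ccl5) in macrophages, -0.56 (Ccl5) in T cells, 2.06 (Ccl3), 2.72 (Ccl4) and 0.82 (Ccl5) in NK cells and -0.62 (Ccl5) in tumour-like cells. Gates per 10000 UMIs gave 0.63 (Ccl1), 0.72 (Ccl4) and -0.84 (Ccl5) in T cells. With the median of all genes set to 0 the values were 0.11 (Ccl3), 0.23 (Ccl4) and -0.035 (Ccl5) in macrophages and -0.72 (Ccl5) in tumour-like cells. With every cell weighted equally they were 0.41 (Ccl4) and -0.029 (Ccl5) in macrophages, 0.73 (Ccl4) in T cells, 1.47 (Ccl4) in NK cells and -0.51 (Ccl5) in tumour-like cells. Thinning to 3000 UMIs gave 1.51 (Ccl1), 1.00 (Ccl4) and -0.74 (Ccl5) in T cells, 2.51 (Ccl3), 2.63 (Ccl4) and -0.73 (Ccl5) in NK cells, -0.49 (Ccl5) in tumour-like cells and -1.89 (Ccl1, few UMIs) in macrophages. Of the alternatives chosen after the values were seen, the control share of interferon-high cells gave 0.054 (Ccl3), 0.11 (Ccl4) and -0.0057 (Ccl5) in macrophages, leaving out the highest cell gave 1.59 for Ccl1 in T cells, and tumour-like cells with no Krt16 UMI gave -0.014 for Ccl5, a value largely fixed by picking a gene that tracked Ccl5 in those cells.

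Genes past 1.5-fold numbered 2060 in macrophages, 683 in T cells, 357 in NK cells and 912 in tumour-like cells. With at least 1 UMI in each library they numbered 5626, 3310, 4512 and 4450, and past 2-fold 987, 105, 109 and 253. With at least 20 UMIs they numbered 1380 in T cells, 1346 in NK cells and 1726 in tumour-like cells, and with no doublet removal 1034 in macrophages. No paired analysis was possible because each group had 1 library and no test was run.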
